A study of Mus musculus with 2 samples.

Results

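Chemokines of the CXC and CX3C families were examined in cultured mouse ovary on microarrays. The genes were Cxcl1, Cxcl2, Cxcl5, Cxcl9, Cxcl10, Cxcl12, Cxcl13, Cxcl14, Cxcl16 and Cx3cl1, listed by name, and every probe whose RefSeq transcript belongs to one of them was taken. They came to 10 genes of the 20658 named on the array and 12 probes of 55674, each printed as 1 spot, with 2 probes each for Cxcl9 and Cxcl12. Ovaries from 2-week-old mice were cut lengthwise into symmetrical pieces, which the paper did to limit error from the use of different ovaries. The pieces were kept in culture for 3 days, either with agonists or with antagonists, each at 1 μM, of the tachykinin receptors (TKRs) TACR1, TACR2 and TACR3. The agonists were [Sar9, Met(O2)11]-SP for TACR1, GR-64349 for TACR2 and a succinyl peptide of substance P for TACR3. The antagonists included GR-94800 for TACR2 and SB218795 for TACR3, beside one for TACR1. RNA of each group went to 1 array, so there was no replicate, and the values are given with neither a test nor a p-value. An untreated ovary was not analysed here, the number of ovaries behind each RNA is not given in the sources used, and a difference between the arrays is that between agonists and antagonists.

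Chemokines are small secreted proteins that guide leukocytes and other cells through G protein-coupled receptors. CXC ligands that carry the ELR tripeptide, such as CXCL1, CXCL2 and CXCL5, act on CXCR2 and attract neutrophils, and the interferon-inducible ligands CXCL9 and CXCL10 act on CXCR3 of T and NK cells. CXCL12, CXCL13 and CXCL14 are produced by resting tissues, while CXCL16 and CX3CL1 are made as membrane proteins with a stalk that proteases can cut. In the ovary, leukocytes enter the follicle wall around ovulation, and chemokines made by granulosa, theca and stromal cells are known to attract them.

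Processed spot signals are the software's background-corrected intensities in signal units, and a spot counts as well above background by the software's own criterion. On this criterion the agonist array detected 65.4% and the antagonist array 61.6% of 59305 spots (controls left out), with 0 saturated. The 75th percentile of an array (agonists 672 signal units, antagonists 569) was subtracted from each of its values on the log2 scale, and a log2 ratio is agonists minus antagonists. A software error is the error that the image software assigns to 1 spot and covers neither the RNA nor the ovary. Whole ovary RNA was measured, so fewer cells of a type and less RNA per cell cannot be told apart.

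Of the 10 chemokine genes, the agonist array detected 9 and the antagonist array 7 well above background. Cxcl1, Cxcl9, Cxcl10, Cxcl12, Cxcl14, Cxcl16 and Cx3cl1 were detected on both arrays, Cxcl5 and Cxcl13 on the agonist array only, and Cxcl2 on neither. Of the 8 chemokine probes detected on both arrays, Cxcl14 exceeded 2-fold in favour of the agonists, Cxcl10 in favour of the antagonists and 6 lay within 2-fold. Among all 33073 probes detected on both arrays, 2.69% exceeded 2-fold in favour of the agonists and 0.705% exceeded it in favour of the antagonists. A count of 1 in 8 rests on a single probe and says nothing of the family as a whole.

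**Figure D1:**
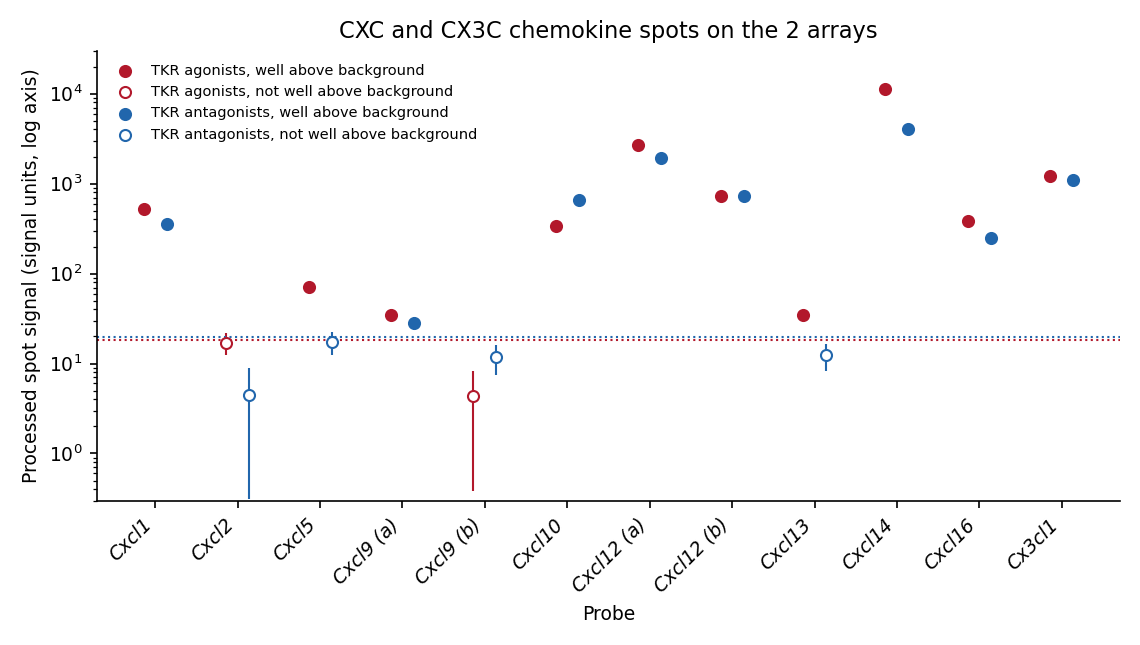
Processed spot signal in signal units on a log axis for the 12 chemokine probes, with the TKR agonists in red and the TKR antagonists in blue. Bars are the software error of 1 spot and stop at the lower end of the axis where they would pass it, open circles are spots not well above background, and dotted lines mark the lowest detected signal of each array (18.1 and 19.9). Cxcl14 had 11287 and 4076 signal units and Cxcl10 had 336 and 657, and the heights of different probes are not comparable.

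Detection set a limit for some of the genes. On at least 1 array, Cxcl2, Cxcl5, Cxcl9 and Cxcl13 lay near or under the lowest detected signal, which was 18.1 signal units with the agonists and 19.9 with the antagonists. The median log2 ratio of the 9 genes detected on at least 1 array was 0.33, with Cxcl5 and Cxcl13 entered at their lower bounds and Cxcl2 left out. It was 0.21 for the 7 genes detected on both. With bounds entered in the same way, the median over all 36718 probes detected on at least 1 array was -0.09. It counts every probe, with or without a gene name, whereas the chemokine medians count 1 probe for each gene. Over the 33073 probes detected on both, the central 95% of log2 ratios ran from -0.73 to 1.03. Cxcl10 and Cxcl14 lay outside this range, and the other chemokine probes detected on both arrays lay inside it.

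**Figure D2:**
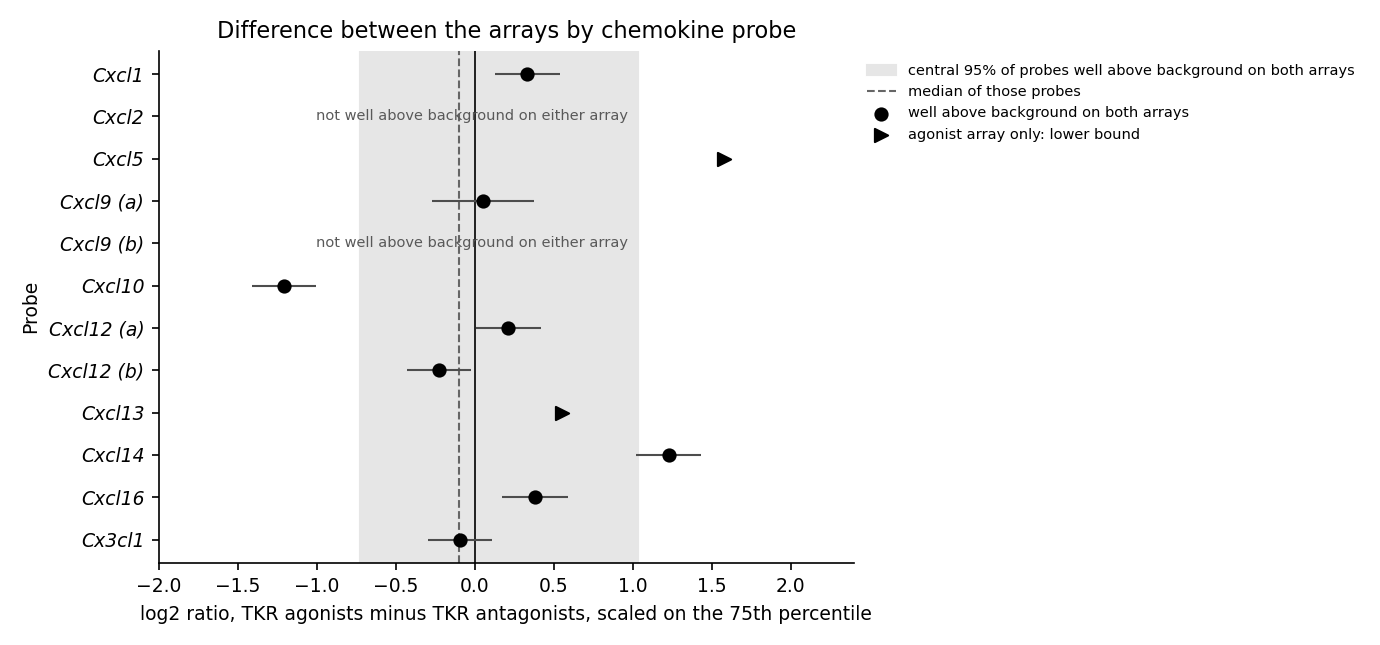
Log2 ratio of TKR agonists to TKR antagonists for each chemokine probe, with the software error as bars where the probe was detected on both arrays. The grey band is the central 95% of all probes detected on both arrays, the dashed line their median (-0.10), and triangles are lower bounds. Cxcl14 at 1.23 and Cxcl10 at -1.21 stood on opposite sides of the band.

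The CXCR2 ligands Cxcl1, Cxcl2 and Cxcl5 are neighbours on mouse chromosome 5. In the RefSeq gene order of GRCm38, the cluster runs Cxcl5, Ppbp, Pf4, Cxcl3, Cxcl15, Cxcl1 and Cxcl2. Transcription of Cxcl1 and Cxcl2 is known to be driven by NF-κB, a factor activated by inflammatory cytokines, which makes the start of these genes a useful piece of sequence to show beside their signals. The stretches below come from the RefSeq promoter windows of GRCm38.p6, which span 250 bases before to 50 bases after the start of a gene. They are printed 5′ to 3′ on the strand of the gene, and capitals mark the κB letters GGAANTTCC, which read the same on both strands. The Cxcl1 stretch is chr5:90891125-90891204 on the plus strand, and that of Cxcl2 is chr5:90903779-90903858 on the plus strand.
Cxcl1: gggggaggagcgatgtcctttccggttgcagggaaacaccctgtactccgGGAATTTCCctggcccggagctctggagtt
Cxcl2: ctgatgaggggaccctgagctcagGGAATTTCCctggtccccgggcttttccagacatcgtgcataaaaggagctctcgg
The match had the same letters in both genes and lay 70 to 62 bases before the start of Cxcl1 and 96 to 88 bases before that of Cxcl2. Of 32851 promoter windows, 0.928% held the κB letters. The motif was chosen after the values were known, and a match describes the sequence and not a bound site.

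Cxcl1 (NM_008176) was the one CXCR2 ligand detected on both arrays. Its spot gave 527 ± 52.8 signal units with the agonists and 354 ± 35.6 with the antagonists (± software error), and the log2 ratio was 0.33 (1.26-fold) with a software error of 0.20. Cxcl1 was thus somewhat brighter with the agonists but within the central 95% of all probes. Probes printed at 10 spots allow a second view of measurement error. Among the 20 such probes nearest in signal, the spots of a probe gave a log2 ratio with an SD of 0.085, which covers the printing and reading of a spot only.

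Cxcl5 (NM_009141) was detected with the agonists and not with the antagonists. The signals were 70.4 ± 8.29 and 17.5 ± 4.96, and the median pixel was 103.5 over a local background of 41 with the agonists and 56.5 over 45 with the antagonists. Because the antagonist spot lay under the lowest detected signal, the fold is a bound, and the agonist value of Cxcl5 was at least 2.99-fold higher (log2 1.58). Of the 2874 probes detected on the agonist array only, 9.6% had a bound of at least 2-fold. Under the normexp background correction, which adds an offset of 50 to every spot, the bound of Cxcl5 fell to a log2 value of 0.39.

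Cxcl2 (NM_009140), which shares the κB stretch with Cxcl1, gave 17.1 ± 4.69 and 4.50 ± 4.52 signal units. Neither spot was well above background, so no fold is given. The agonist spot passed the software's looser criterion of being positive and significant against its local background, and the antagonist spot did not. Cxcl1 and Cxcl2 thus shared the κB letters printed above but not the detection, and no relation between these facts was tested.

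The rest of the chromosome 5 cluster was mostly not detected. Cxcl3, Cxcl15 and Ppbp, the last a platelet chemokine, were not well above background on either array. Pf4 (platelet factor 4), which lies among them, gave 1787 and 682 signal units and a log2 ratio of 1.15. Along the cluster, detected and undetected genes were interleaved, since Cxcl5 and Pf4 lay on either side of Ppbp, and Cxcl1 followed Cxcl3 and Cxcl15.

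The CXCR3 ligands Cxcl9 and Cxcl10 also lie on chromosome 5, with Art3 between them in the RefSeq order. Both are known targets of interferon-γ, and Cxcl10 also of type I interferon through the interferon-stimulated response element (ISRE). The Cxcl10 stretch is chr5:92349030-92349119 of GRCm38.p6 on the minus strand, shown because Cxcl10 was the one chemokine past 2-fold in favour of the antagonists. Capitals mark the core letters of the ISRE, GAAANNGAA, and then the κB letters GGAANTTCC.
Cxcl10: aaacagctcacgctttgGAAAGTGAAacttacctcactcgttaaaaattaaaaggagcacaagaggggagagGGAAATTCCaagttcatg
The ISRE letters lay 213 to 205 bases and the κB letters 158 to 150 bases before the start of Cxcl10. Both strands were searched, the motifs do not overlap here, and 8.56% of the 32851 windows held the ISRE letters. Of the 10 chemokine genes, 8 had a promoter window, without Cxcl5 and Cxcl16. The κB letters were in the windows of 3 of these (Cxcl1, Cxcl2 and Cxcl10). The ISRE letters were in 3 (Cxcl10, Cxcl9 at 175 to 167 bases and Cxcl14 at 172 to 164 bases before the start).

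Cxcl10 (NM_021274) gave 336 ± 33.9 signal units with the agonists and 657 ± 65.8 with the antagonists. It was 2.31-fold lower with the agonists (log2 ratio -1.21, software error 0.21), and the SD over spots of the 20 replicated probes of like signal was 0.084. Cxcl10 was thus brighter on the antagonist array. Of the chemokine probes detected on both arrays whose difference exceeded the software error, Cxcl10 and the second Cxcl12 probe were below 0 and Cxcl1, the first Cxcl12 probe, Cxcl14 and Cxcl16 above it. The 2-fold size depended on the scaling: the log2 ratio was -0.97 without scaling, -0.93 with scaling on the spike-in controls and -0.99 with normexp background correction. The direction was the same under all 10 alternatives tried for this probe. Those that kept outlier spots or took the median over spots could not change it, since the probe has 1 unmarked spot.

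Cxcl9 (NM_008599) was dim. Its first probe gave 34.9 ± 5.05 and 28.4 ± 4.88 signal units and a log2 ratio of 0.05 with a software error of 0.32. Its second probe gave 4.37 ± 3.99 and 11.8 ± 4.40 signal units and was not well above background on either array. A difference between the groups was not detectable at this signal, and the sign of the first probe's ratio turned with the background correction (-0.28 with normexp). Cxcl10 and Cxcl9, neighbours with the same receptor, were measured with unlike precision, and Art3 between them had a log2 ratio of 0.70.

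Cxcl12, Cxcl13 and Cxcl14 are the homeostatic members of the set. Cxcl14 (NM_019568), expressed by epithelia and stromal cells in many tissues and with a receptor that is not settled, had the highest log2 ratio among the chemokine probes detected on both arrays. It gave 11287 ± 1129 signal units with the agonists and 4076 ± 408 with the antagonists, which is 2.34-fold higher with the agonists (log2 ratio 1.23, software error 0.20, SD over spots of like signal 0.051). Of the 13336 probes that were detected on both arrays and whose mean signal reached the 75th percentile, as that of Cxcl14 did, 1.73% exceeded 2-fold in favour of the agonists. The log2 ratio of Cxcl14 stayed between 1.17 and 1.5 over 10 alternatives of scaling, background correction and spot summary. The alternatives of spot summary could not change it, since the probe has 1 unmarked spot.

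**Figure D3:**
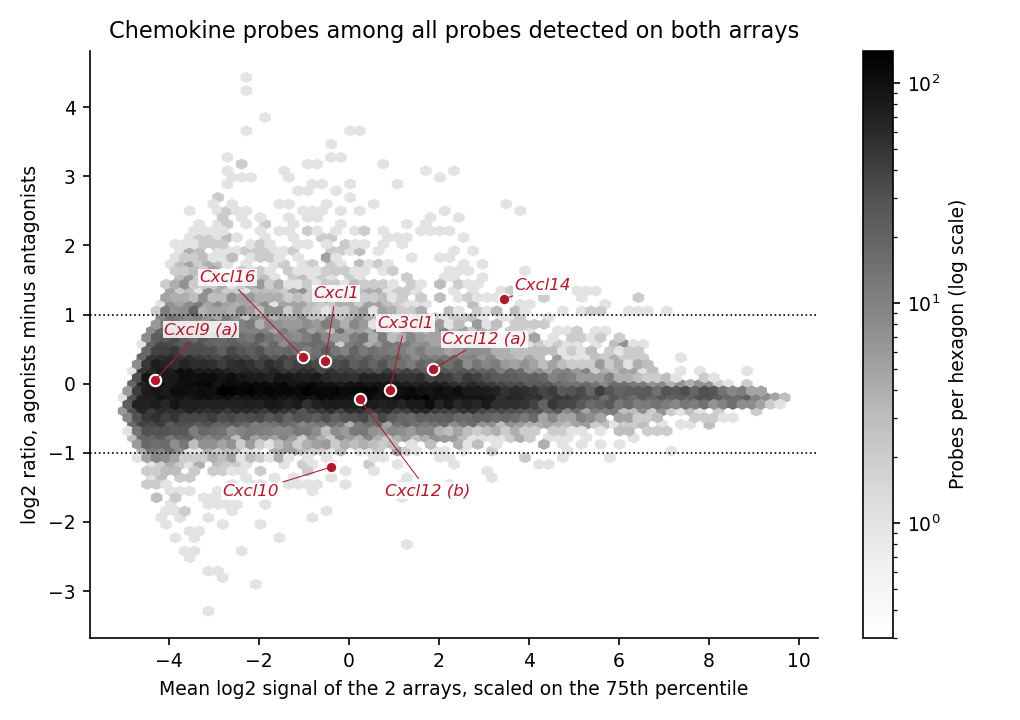
Log2 ratio of agonists to antagonists against the mean log2 signal of the 2 arrays for the 33073 probes detected on both, as hexagons shaded by the number of probes on a log scale. The 8 chemokine probes detected on both arrays are marked in red, and dotted lines mark 2-fold. Cxcl14 lay above the upper line at high signal, Cxcl10 below the lower line at middle signal, and the other 6 probes between the lines.

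Cxcl12 attracts leukocytes and progenitor cells through CXCR4 and is also bound by ACKR3. One probe was designed on NM_001012477 and another on NM_021704, which are different transcripts of the gene. The first gave 2673 ± 267 (agonists) and 1950 ± 195 (antagonists) signal units, a log2 ratio of 0.21 with a software error of 0.20. The second gave 737 ± 73.8 and 730 ± 73.1, a log2 ratio of -0.23 with a software error of 0.20. The probes of Cxcl12 thus lay on opposite sides of 0, each about 1 software error away, and the ratio of the second turned to 0.05 with spike-in scaling. No direction is given for the gene.

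Cxcl13 (NM_018866), the CXCR5 ligand that draws B cells into follicles of lymphoid organs, was detected on the agonist array only. Its signals were 34.6 ± 5.12 and 12.4 ± 4.20. The agonist value was at least 1.47-fold higher (log2 0.56), a bound under 2-fold that came to 0.08 with normexp. As with Cxcl5, the antagonist value lay under the lowest detected signal, and the size of the difference is open upwards.

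Cxcl16 and Cx3cl1 are the transmembrane chemokines. Cxcl16 (NM_023158), a ligand of CXCR6 and a scavenger receptor, gave 381 ± 38.3 (agonists) and 247 ± 25.1 (antagonists) signal units, a log2 ratio of 0.38 (1.30-fold, software error 0.21). Cx3cl1 (NM_009142), fractalkine, gave 1223 ± 122 and 1103 ± 110, a log2 ratio of -0.09 (1.07-fold, software error 0.20). Cxcl16 was brighter with the agonists by more than its software error and Cx3cl1 differed by less. The sign for Cx3cl1 depended on scaling, from -0.15 with the median to 0.18 with spike-ins, whereas Cxcl16 stayed between 0.29 and 0.66.

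**Figure D4:**
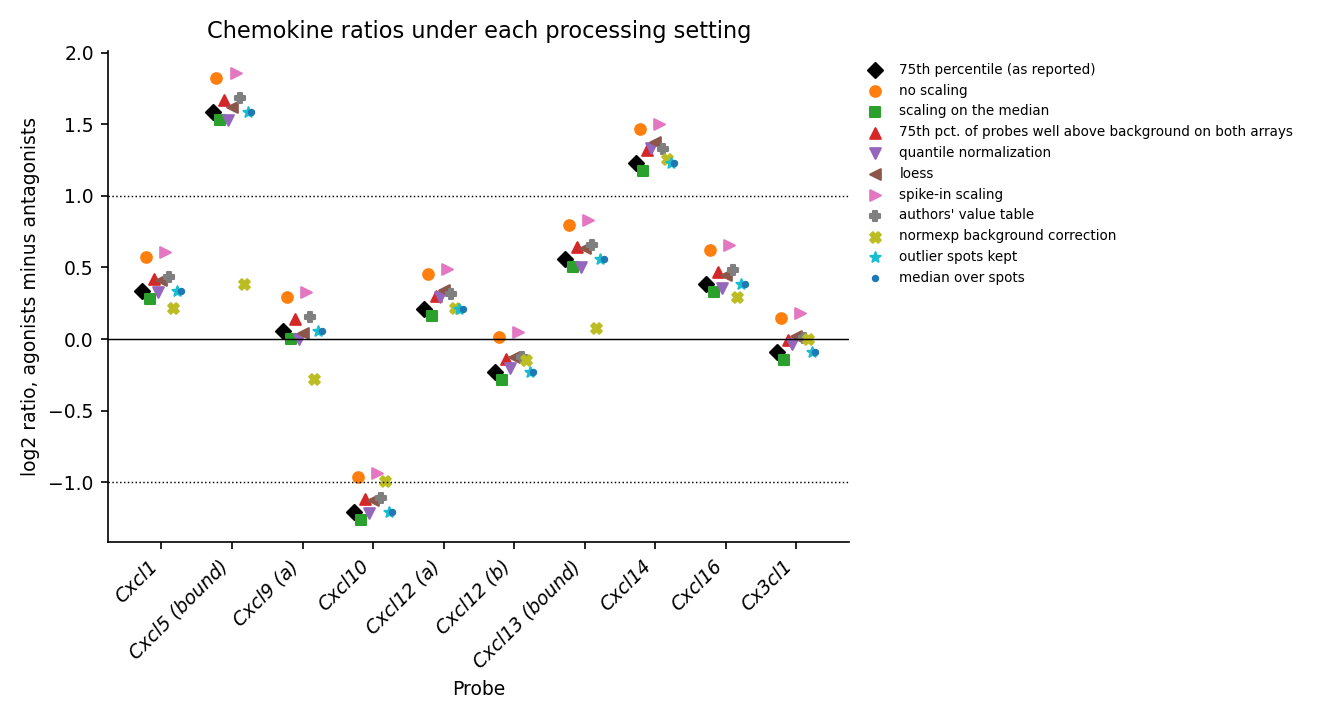
Log2 ratio of agonists to antagonists for the chemokine probes detected on at least 1 array, as reported and under 10 alternatives of scaling, background correction and spot summary. The alternatives of spot summary could not move these probes, which have 1 unmarked spot each. Cxcl5 and Cxcl13 are lower bounds, and dotted lines mark 2-fold. Cxcl10 ranged from -1.26 to -0.93 and Cxcl14 from 1.17 to 1.5, while Cxcl9, the second Cxcl12 probe and Cx3cl1 had values on both sides of 0.

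Other CXC ligands outside the 10 genes were few. Cxcl17, made by mucosal epithelia, gave 75.9 and 23.5 signal units and a log2 ratio of 1.45, so that it and Pf4 were the 2 detected of 5 with a named probe. Cxcl11, the remaining CXCR3 ligand, had no probe named through RefSeq and was not analysed here.

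The receptors of these ligands had 10 genes with a named probe, of which 6 were detected on both arrays. Of these, 5 were brighter with the agonists and 1 was at least 2-fold higher, with a median log2 ratio of 0.75. Over all 33073 probes detected on both arrays, 2.69% were at least 2-fold higher, and the median log2 ratio was -0.10. The count of 1 rests on a single gene and says nothing of the receptors as a whole. Cx3cr1, the receptor of CX3CL1 on macrophages and monocytes, gave 1176 and 163 signal units and a log2 ratio of 2.61. A second Cx3cr1 probe gave 55.7 and 19.6, was detected on the agonist array only and had a bound of at least 2.37-fold. Cx3cr1 and its ligand Cx3cl1 thus had unlike ratios, 2.61 against -0.09, each from the same pair of arrays.

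The receptors of CXCL12 were both detected. Cxcr4 gave 997 and 450 signal units (log2 ratio 0.90) and Ackr3, which binds and removes the ligand, gave 3617 and 1839 (log2 ratio 0.73). Both exceeded their software error of 0.20, and both lay within the central 95% of all probes.

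Cxcr3, the receptor of CXCL9 and CXCL10, gave 92.5 and 46.0 signal units and a log2 ratio of 0.77, opposite in sign to that of Cxcl10. Cxcr6, the receptor of CXCL16, had log2 ratios of -0.14 and 0.02 on its probes, each smaller than its software error. Cxcr2, the receptor of the neutrophil attractants, and Cxcr5, that of CXCL13, were not well above background on either array. Cxcr1 was detected on the antagonist array only, at 15.7 against 20.1 signal units. Of the atypical receptors that bind chemokines without attracting cells, Ccrl2 had a log2 ratio of 0.33 and Ackr1 was detected on the agonist array only, with no bound above 1-fold.

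**Figure D5:**
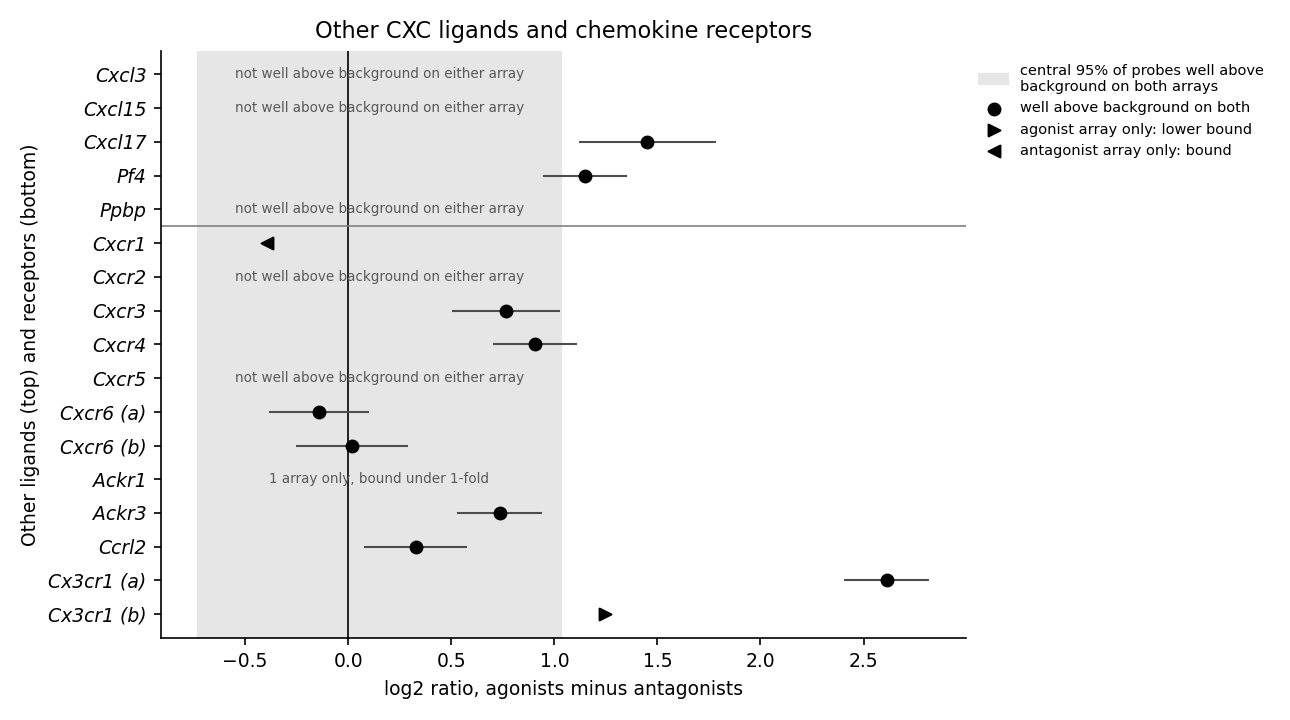
Log2 ratio of agonists to antagonists for the other CXC ligands and for the chemokine receptors, with software error bars where the probe was detected on both arrays and triangles for bounds. The grey band is the central 95% of all probes detected on both arrays. Cx3cr1 reached 2.61, Pf4 and Cxcl17 lay above the band at 1.15 and 1.45, and Cxcr4, Ackr3 and Cxcr3 lay inside it.

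Of 8 proteases and binding factors that act on chemokines, 5 were detected on both arrays. Among these 5, 0 were at least 2-fold different, and the median log2 ratio was -0.06. Adam10 and Adam17, which cut CXCL16 and CX3CL1 from the membrane, had log2 ratios of -0.06 for Adam10 and of -0.51 and -0.11 for the probes of Adam17. Mmp2 had 0.07, and the heparan sulphate carriers Sdc1 and Sdc4 had -0.10 and 0.40. Dpp4 and Mmp8 were detected on the agonist array only, at least 1.44-fold and at least 1.11-fold higher there, so their folds are open upwards, and Mmp9 was on neither.

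The inducers of these chemokines and the common reporters of NF-κB and interferon numbered 23 genes, of which 16 were detected on both arrays. The cytokines Il1a, Il1b, Tnf, Il6, Il17a, Ifng and Ifnb1 were not well above background on either array. Of the 16 detected, 14 were brighter with the agonists and 1 was at least 2-fold higher, with a median log2 ratio of 0.41. Over all 33073 probes detected on both arrays, 2.69% were at least 2-fold higher, and the median log2 ratio was -0.10. The adhesion molecule gene Vcam1 gave 1434 and 481 signal units and a log2 ratio of 1.33, and 1.42 on its other probe. Next to it came Icam1 (0.95), Socs3 (0.75), Tnfaip3 (0.73), Relb (0.67) and Nfkbiz (0.64), while the NF-κB subunit gene Rela had 0.17 and the inhibitor gene Nfkbia 0.37.

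The interferon reporters split. Gbp2 had a log2 ratio of 0.45, Irf1 -0.05 and Irf7 -0.59, so that Irf7 was brighter on the antagonist array, as Cxcl10 was. These are values of single probes on 1 array for each group, and no relation to Cxcl10 was tested.

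Marker genes of the cells an ovary piece can hold differed between the arrays too. By their brightest probe, all 7 macrophage genes detected on both arrays were brighter with the agonists, 4 of them at least 2-fold. Their median log2 ratio was 1.18 (Aif1 1.84, Mrc1 1.82, Adgre1 1.42). The lowest was Csf1r at 0.15, less than its software error of 0.20, and its other probes gave -0.09 and 0.04. The other Adgre1 probe gave 0.72. All 7 genes of the surface epithelium and mesothelium were brighter too, 4 at least 2-fold, with a median of 1.03 and a highest value of 3.14 for Lgals7. Among all 33073 probes detected on both arrays, 2.69% were at least 2-fold higher with the agonists. Endothelial genes had a median of 0.68 over 6 genes, smooth muscle 0.71 over 4 and stroma 0.38 over 6. Granulosa genes had a median of -0.47 over 7, with 5 below 0 and 2 above it, and a range from -0.73 (Fshr) to 0.37 (Cyp19a1). Foxl2 was above 0 on its brightest probe (0.32) and below it on the other (-0.37). Theca genes had a median of -0.40 over 3, with Cyp17a1 at -0.41, Star at -0.40 and Cyp11a1 on the other side at 0.79. That median is the value of the brightest Star probe, and the other Star probe gave 0.01. Oocyte genes had a median of 0.07 over 7, and every gene of these 3 lists with a named probe was detected on both arrays.

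Markers of the cells that the chemokines attract were mixed. Of 8 neutrophil genes with a probe, 3 were detected on both arrays with a median log2 ratio of 0.05 and 3 on the agonist array only, while S100a8 and Ngp were on neither. Those on both were Elane (0.05), Csf3r (-0.14) and Camp (0.88, and 0.71 on its other probe). The median is the value of Elane. Signals with agonists and antagonists were 78901 and 73526 for Csf3r and 4613 and 3781 for Elane. They were 161 and 74.3 for the brightest Camp probe and 31.9 and 15.4 for S100a9. With signals this unlike, the median is not read as a value for neutrophils, and the source of the RNA was not tested. On the agonist array only, S100a9 was at least 1.35-fold, Mpo at least 1.25-fold and Ltf at least 1.78-fold higher. T and NK cell genes had a median of -0.22 over 5, with Cd8a and Ncr1 on neither array, and the 1 B cell gene detected on both had 0.20. Among those 5, Nkg7 had another probe that was on neither array, and the probes of Cd4 gave 0.10 and -0.07. The Cd4 probes also differed in signal, with 6019 and 4736 units on the first and 33.2 and 29.6 on the second. Of the platelet genes, Itga2b, Gp1ba, Gp9 and Ppbp were on neither array, and Pf4 was the one detected. Fat genes were 2 detected of 4 and far apart, with Fabp4 at 3.82 (739 and 44.2 signal units) and Plin1 at 0.59 (73.2 and 41.3). Adipoq and Lep were on neither array, and motile cilia genes had a median of -0.43 over 2. The part of these cell types in the chemokine values was not tested.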

How the data were processed

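Total RNA of cultured ovary pieces was labelled with Cy3 and hybridised to 2 single-colour SurePrint G3 Mouse GE arrays on 1 slide, 1 for each group as the labels give it. The authors deposited the spot intensity on a linear scale as Agilent Feature Extraction 10.10.1.1 processed it, with its errors and detection marks, and a value table that equals this intensity times a constant (1.99 for agonists, 2.19 for antagonists). The deposited intensity was taken as log2, reduced by the 75th percentile of spots that are not controls, and averaged over the spots of a probe without outlier spots (0 chemokine spots were marked). A probe was detected where over 50% of its spots were well above background. Probes were named through RefSeq accessions, 27230 of 55674 in all. The gene table's assembly is not that of the array and served for names and gene order only, and promoter coordinates are those of RefSeq's own windows. Where 1 array detected a probe, the fold is a bound: the value on that array was divided by the lowest detected signal of the other array, or by the dim value itself if that was larger. A gene with several probes is represented by the brightest in lists. All chemokine probes are named, and listed genes where detected, except that the value of 1 listed gene is not reported here. The members, lists and motifs were chosen with earlier results of these data known. Alternatives were 7 scalings, normexp on the median spot signal, spot and probe summaries, filters on dim probes, 1.5-fold and 4-fold thresholds and another detection criterion. The number of arrays limits the precision. The calculation was tested on simulated data. Python 3.11.15, numpy 2.4.6, pandas 2.3.3, matplotlib 3.10.9, R 4.3.3 and limma 3.58.1 were used.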

Additional observations from a re-analysis of the deposited data

How the results depend on the processing

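Of 120 recomputed log2 ratios and bounds of single probes, 101 moved by less than the software error of the spots and 19 by more. The 101 include all values with outlier spots kept and with the median over spots. Those settings could not move a chemokine value, because each probe had 1 spot and 0 were marked as outliers. The median log2 ratio over the chemokine genes was 0.33, 0.57 without scaling and 0.61 with spike-in scaling, and lay between 0.21 and 0.43 otherwise. The probes at least 2-fold higher with the agonists, counting the bound of Cxcl5, numbered 2, and 1 with normexp, 4 with no filter on dim probes and 0 at a 4-fold threshold. The probes at least 2-fold lower numbered 1 (Cxcl10), and 0 without scaling, 0 with spike-in scaling, 0 with normexp, 2 with no filter and 0 at 4-fold. With the criterion of positive and significant signal, 10 genes were detected with the agonists and 9 with the antagonists, in place of 9 and 7. Scaling moved the whole array: the share of higher among all probes at least 2-fold different was 79.3%, 93.9% without scaling and 94.9% with spike-in scaling, and the median of all probes moved from -0.10 to 0.14 and 0.18. The numbers of higher and lower probes on the array were 890 and 233, 1499 and 98 without scaling, 1622 and 88 with spike-in scaling and 410 and 60 with normexp. Cxcl2, Cxcl5, Cxcl9 and Cxcl13 are limited by signal over background. No paired analysis was possible because each group has 1 array. Whether pieces of the same ovaries went to both arrays is not stated in the sources used.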
